A study of Mus musculus with 20 samples.

Results

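The interferon gamma (IFNγ) signalling genes described here are 9 genes of the proximal IFNγ pathway: the receptor chains Ifngr1 and Ifngr2, the kinases Jak1 and Jak2, the transcription factors Stat2 and Stat3, and the negative regulators Socs1, Socs3 and Ptpn2. They were taken by symbol from a table of 56941 genes, as a set chosen with earlier results of these data known, and all 9 were among the 13755 genes with enough reads to be tested. Messenger RNA was sequenced from BV-2 cells, a mouse microglial line in permanent culture, either wild type or labelled as knockout for RGS10, a regulator of G protein signalling. Each line received medium as vehicle or IFNγ at 10 ng/mL, and RNA was taken after 48 hours, so that 4 groups of 5 libraries (20 in all) could be compared. In every group libraries 1 to 3 were of batch 1, library 4 of batch 2 and library 5 of batch 3, as the labels give it, and library values below are listed in that order. The labels do not say how the knockout was made or whether the line is 1 clone. They call the replicates biological without a culture history, so a p-value speaks only of the spread among these libraries, part of which may be technical.

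IFNγ binds a receptor built from a ligand-binding chain, IFNGR1, and a signalling chain, IFNGR2. JAK1 is held by the first chain and JAK2 by the other, and on ligand binding they phosphorylate the receptor and the STAT proteins that dock there, which then move to the nucleus and switch on genes. The signal is damped by SOCS1 and SOCS3, which are made in response to cytokines and bind JAKs and receptor tails, and by phosphatases such as PTPN2 (TC-PTP) that remove phosphate from JAKs and STATs. In microglia and macrophages IFNγ induces antigen presentation and an activated state.

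Total counts ran from 15866749 to 29157740 per library. Rgs10, the targeted gene, was read in every knockout library, at 22.6 to 34.5 CPM (reads normalised to library size) under vehicle against 55.0 to 73.0 CPM in wild-type cells, a difference of −1.17 ± 0.17 log2 (edgeR adjusted p = 3.2e-05). With IFNγ its fitted difference between the lines was −0.33 log2 (edgeR adjusted p = 0.13), and −0.30, 0.01 and −0.87 log2 within batches 1, 2 and 3. In wild-type cells Rgs10 went from a mean of 62.98 CPM under vehicle to 29.55 CPM with IFNγ (−1.17 log2, edgeR adjusted p = 1e-05). In knockout cells it went from 28.23 to 24.37 CPM, which did not pass the test (−0.33 log2, edgeR adjusted p = 0.12). The 2 Rgs10 responses differed by 0.84 ± 0.24 log2, knockout minus wild type (edgeR adjusted p = 0.044), and that call was lost in 17 of 30 alternative settings. All 10 microglia and macrophage markers on the list exceeded 1 CPM in 3 of the groups and 9 of 10 did in wild-type cells with IFNγ, with summed levels of 2420 to 2880 CPM (wild type, vehicle), 2700 to 2930 (wild type, IFNγ), 2040 to 2480 (knockout, vehicle) and 2320 to 2540 CPM (knockout, IFNγ). All marker levels in this check are on plain library totals, without the scaling factors given below. With IFNγ the single markers of that list moved both ways. In wild-type cells the IFNγ libraries lay wholly above the vehicle libraries for 4 of 10 (Aif1, Itgam, Cd68 and Ptprc) and wholly below them for 4 (Csf1r, Cx3cr1, P2ry12 and Tmem119). In knockout cells they lay wholly above for 3 (Aif1, Itgam and Ptprc) and wholly below for 2 (Cx3cr1 and Tmem119). Between the lines the markers went 1 way. Knockout vehicle libraries lay wholly below wild-type vehicle libraries for 4 of 10 (Aif1, Csf1r, P2ry12 and Tmem119) and wholly above for 0. With IFNγ the knockout libraries lay wholly below for 2 (Aif1 and Cd68) and wholly above for 0. Overlap of the markers on scaled totals was not checked. Among the other cell types checked, the 4 astrocyte markers summed to at most 0.61 CPM in any library, and the 4 endothelial markers to 238 to 410 CPM in knockout vehicle cells against 25.5 to 42.0 CPM in wild-type vehicle cells. Nearly all of the endothelial sum was Kdr (237 to 410 CPM in knockout vehicle cells), while Cldn5 was at 0 in both vehicle groups. The IFNγ libraries of batches 2 and 3 stood apart. Malat1, a nuclear RNA used as a sign of library quality, was at 955 to 1510 CPM in those 4 libraries, at 355 to 386 CPM in the other 3 wild-type IFNγ libraries, at 55.9 to 62.7 CPM in the other 3 knockout IFNγ libraries and at 51.4 to 166 CPM under vehicle. Their TMM scaling factors were 0.63 and 0.76 (wild type) and 0.89 and 0.88 (knockout), against 1.01 to 1.12 elsewhere. The part of library quality and of these marker differences in the results below was not tested. For each member call, the differences within the batches are given beside the pooled value.

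In wild-type cells IFNγ raised 6 of the 9 genes (Jak1, Jak2, Stat2, Stat3, Socs1 and Socs3) and lowered 1, Ifngr1. Ifngr2 and Ptpn2 did not pass the test. The same 7 genes were called in the same directions in knockout cells. A gene was called where edgeR's quasi-likelihood test with batch as a term gave an adjusted p (Benjamini-Hochberg, over all 13755 genes) below 0.05, and "rose", "fell", "higher" and "lower" are used of calls. Of all genes tested, 58.9% were called in wild-type cells (29% higher and 29.9% lower) and 43.2% in knockout cells (21.4% higher and 21.8% lower), so a call in either direction was common. The 6 members that rose did so against these shares of 29% and 21.4%. The median log2 change over the 9 members was 1.82 in wild-type and 1.39 in knockout cells, against 0.01 and −0.02 over all genes. In both lines the vehicle and IFNγ libraries of all 7 called members did not overlap, which held for 36.2% of all genes in wild-type and 27.6% in knockout cells. The 2 responses come from separate libraries, and the difference between them is tested further down.

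**Figure D1:**
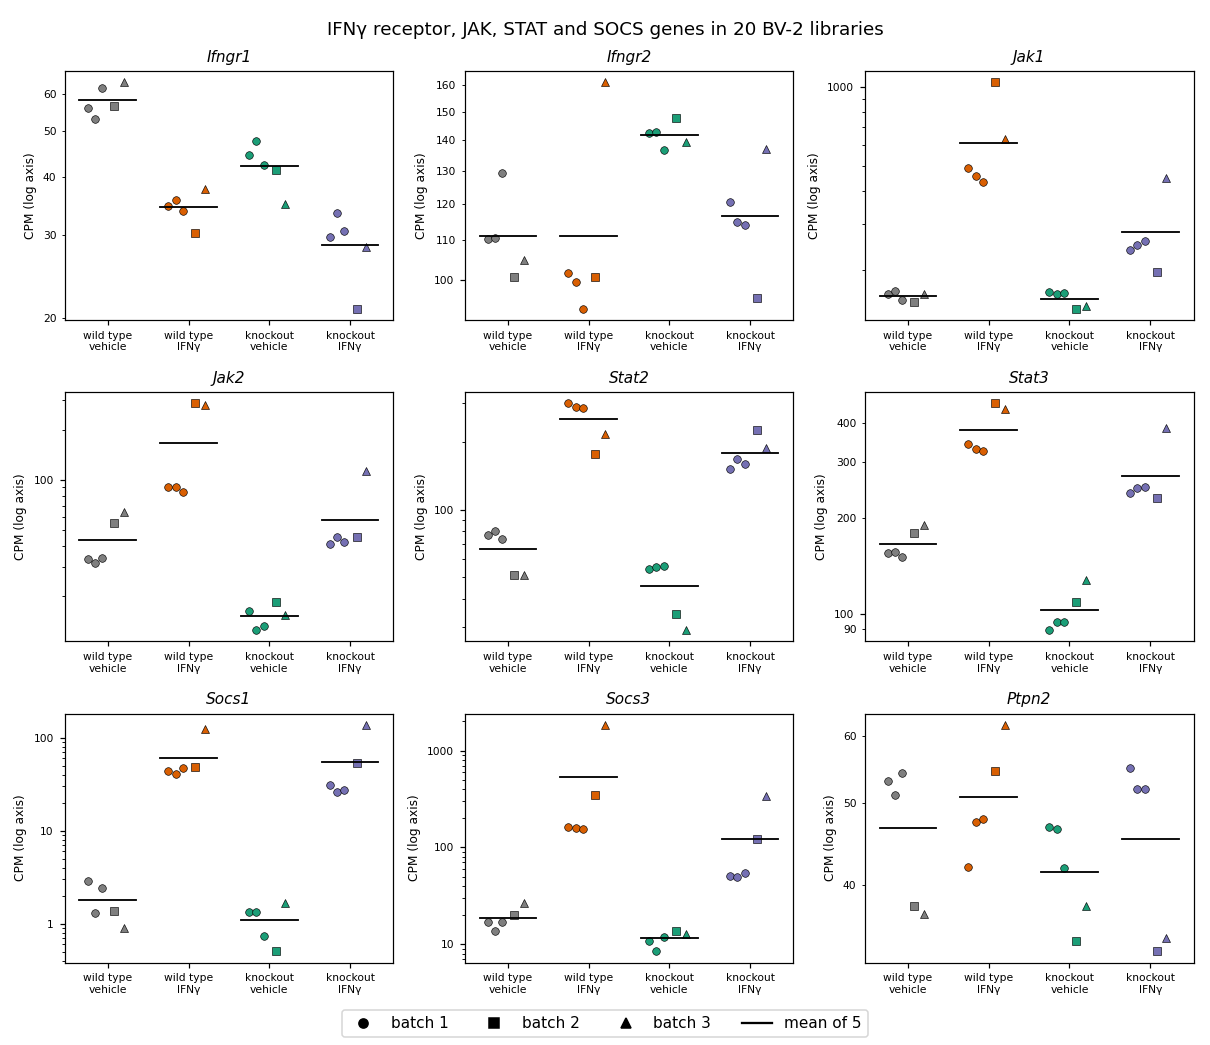
Level of each of the 9 genes in every library, in CPM on TMM-scaled library totals (log axis), for the 4 groups. Each marker is 1 library, its shape gives the batch, and the black line is the mean of 5 libraries. Socs1 and Socs3 span the widest range, from 0.505 CPM (Socs1, knockout, vehicle) to 1842 CPM (Socs3, wild type, IFNγ).

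The promoters of 8 of the 9 genes were taken from the RefSeq table (build GRCm38.p6) as the 250 bases before the start, and searched on both strands for 2 letter patterns. These were the gamma-activated site bound by STAT dimers, TTCNNNGAA, which is its own reverse complement, and the core of the interferon-stimulated response element, GAAA followed by any 2 bases and GAAA again, bound by STAT2-containing complexes and IRF proteins. Stat2 and Socs1 held the second pattern and Socs3 the first, while the windows of Ifngr1, Ifngr2, Jak1, Jak2 and Stat3 had neither string of letters. Among 32851 promoters of the same length, 7.02% held the first pattern and 2.98% the second. The 3 windows with a match are printed here because they belong to 3 of the genes that rose, with the matching bases in capitals, each read 5′ to 3′ on its gene's strand. The Stat2 window is chr10:128270248-128270497 (plus strand), the Socs1 window chr16:10785537-10785786 (minus strand), and the Socs3 window, cut to 165 bases to leave out annotated exon sequence, chr11:117969452-117969616 (minus strand).
Stat2: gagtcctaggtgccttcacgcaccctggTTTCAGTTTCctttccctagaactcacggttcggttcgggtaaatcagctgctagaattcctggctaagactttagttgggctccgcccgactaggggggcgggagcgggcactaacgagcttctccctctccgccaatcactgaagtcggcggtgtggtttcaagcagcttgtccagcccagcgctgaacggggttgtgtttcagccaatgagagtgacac
Socs1: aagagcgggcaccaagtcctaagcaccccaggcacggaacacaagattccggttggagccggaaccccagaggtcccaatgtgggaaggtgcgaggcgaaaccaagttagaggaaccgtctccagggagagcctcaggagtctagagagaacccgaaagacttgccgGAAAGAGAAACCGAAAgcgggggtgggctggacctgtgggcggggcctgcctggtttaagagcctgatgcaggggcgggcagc
Socs3: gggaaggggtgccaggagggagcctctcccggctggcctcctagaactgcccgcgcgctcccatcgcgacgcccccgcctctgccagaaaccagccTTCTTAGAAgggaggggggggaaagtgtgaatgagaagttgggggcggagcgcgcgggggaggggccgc
In Stat2 the match lies on the reverse strand at −222 to −213 from the start. In Socs1 a pair of matches overlaps, GAAAGAGAAA at −83 to −74 and GAAACCGAAA at −77 to −68, so that they share 4 bases. In Socs3 the match TTCTTAGAA lies at −154 to −146 from the RefSeq start. Annotated exon sequence reaches upstream of that start, so the printed Socs3 window ends at −86. The match is thus nearer to an annotated exon than its position says. These are letter matches in a fixed window, and no binding was measured.

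Ifngr1 (ENSMUSG00000020009), the ligand-binding chain, was the only member called lower with IFNγ by the test given above. Wild-type libraries read 55.9, 53.1, 61.9, 56.4 and 63.6 CPM under vehicle and 34.6, 35.7, 33.8, 30.4 and 37.7 CPM with IFNγ. Every IFNγ library lay below every vehicle library, and the fall was 1.69-fold (−0.76 ± 0.11 log2 ± SE, edgeR adjusted p = 1.1e-05), at −0.70, −0.88 and −0.75 log2 within batches 1, 2 and 3. In knockout cells Ifngr1 went from 44.4, 47.6, 42.4, 41.3 and 35 CPM to 29.8, 33.4, 30.7, 21.0 and 28.3 CPM. The groups again did not overlap, and the fall was 1.48-fold (−0.56 ± 0.11 log2, edgeR adjusted p = 0.00051), at −0.51, −0.96 and −0.30 log2 within the batches. In such bulk RNA, fewer cells with the transcript and less of it per cell cannot be told apart.

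Ifngr2 (ENSMUSG00000022965), the signalling chain, read 110, 111, 129, 101 and 105 CPM in wild-type vehicle cells and 102, 99.6, 93.3, 101 and 161 CPM with IFNγ. The batch 3 library with IFNγ lay above all vehicle libraries, while the batch 1 libraries lay below them or among them, and the pooled difference was −0.02 log2 with a 95% interval from −0.27 to 0.23 (edgeR adjusted p = 0.90). Within batches 1, 2 and 3 it was −0.25, 0.00 and 0.62 log2. In knockout cells the levels were 142, 143, 137, 148 and 139 CPM under vehicle and 121, 115, 114, 95.8 and 137 CPM with IFNγ. The highest IFNγ library just overlapped the vehicle range, and the difference of −0.29 log2 (interval −0.54 to −0.05) missed the threshold (edgeR adjusted p = 0.052), at −0.27, −0.62 and −0.02 log2 within the batches. In 9 of 30 alternative settings Ifngr2 was called lower with IFNγ in knockout cells. A fit of batch 1 alone called it lower in wild-type (−0.26 log2, edgeR adjusted p = 0.00018) and knockout cells (−0.25 log2, edgeR adjusted p = 0.00047).

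Jak1 (ENSMUSG00000028530), the kinase on the IFNGR1 chain, rose with IFNγ in both lines. Wild-type vehicle libraries read 162, 166, 153, 151 and 162 CPM and IFNγ libraries 491, 456, 433, 1041 and 630 CPM. The rise was 3.75-fold (1.91 ± 0.21 log2, edgeR adjusted p = 3.4e-07), at 1.51, 2.78 and 1.96 log2 in batches 1, 2 and 3. Knockout vehicle libraries read 164, 161, 164, 142 and 146 CPM and IFNγ libraries 239, 249, 257, 197 and 447 CPM. All 5 knockout IFNγ libraries exceeded every vehicle library, with a rise of 1.75-fold (0.81 ± 0.21 log2, edgeR adjusted p = 0.0037). In batches 1, 2 and 3 that rise was 0.61, 0.47 and 1.61 log2.

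Jak2 (ENSMUSG00000024789), the kinase on the IFNGR2 chain, rose 3.52-fold in wild-type cells (1.82 ± 0.22 log2, edgeR adjusted p = 1.2e-06) and 3.49-fold in knockout cells (1.80 ± 0.23 log2, edgeR adjusted p = 4.4e-06). In wild-type cells it read 33.2, 31.5, 34.1, 54.7 and 63.7 CPM under vehicle and 89.9, 90.9, 84.2, 288 and 283 CPM with IFNγ. The libraries of batches 2 and 3 were the high ones in both groups. Knockout libraries read 16.3, 12.5, 13.2, 18.4 and 15.3 CPM under vehicle and 40.9, 45.3, 42.1, 45.1 and 114 CPM with IFNγ. In the knockout IFNγ group the libraries of batches 1 and 2 lay close together and the batch 3 library stood above them. Within batches 1, 2 and 3 the response was 1.41, 2.38 and 2.14 log2 in wild-type and 1.58, 1.27 and 2.85 log2 in knockout cells.

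Stat2 (ENSMUSG00000040033), the STAT best known from type I interferon signalling, rose 3.80-fold in wild-type cells (1.93 ± 0.17 log2, edgeR adjusted p = 2.4e-08) and 4.13-fold in knockout cells (2.04 ± 0.17 log2, edgeR adjusted p = 2.9e-08). Wild-type libraries read 77.4, 80.5, 73.8, 51.3 and 50.9 CPM under vehicle and 298, 288, 284, 177 and 219 CPM with IFNγ. Here the batch 1 libraries were the high ones in both groups, the reverse of Jak2. Knockout libraries read 54.1, 55.1, 55.9, 34.0 and 29 CPM under vehicle and 153, 168, 160, 227 and 189 CPM with IFNγ, so that the order of the batches differed between the treatments. Within batches 1, 2 and 3 the response was 1.90, 1.78 and 2.09 log2 in wild-type cells and 1.53, 2.72 and 2.68 log2 in knockout cells.

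Stat3 (ENSMUSG00000004040), the STAT that transmits IL-6 and IL-10 signals, rose 2.27-fold in wild-type cells (1.18 ± 0.10 log2, edgeR adjusted p = 1.5e-08) and 2.63-fold in knockout cells (1.39 ± 0.10 log2, edgeR adjusted p = 3.3e-09). Wild-type libraries read 156, 156, 151, 180 and 190 CPM under vehicle and 343, 329, 325, 460 and 443 CPM with IFNγ. Knockout libraries read 89.2, 94.6, 94.4, 109 and 128 CPM under vehicle and 241, 249, 252, 232 and 386 CPM with IFNγ. The response was 1.10, 1.35 and 1.22 log2 in wild-type and 1.41, 1.08 and 1.59 log2 in knockout cells within batches 1, 2 and 3. Stat3 had the smallest rise of the 6 genes in wild-type cells, and its standard error was the smallest of the 9 members in both lines.

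Socs1 (ENSMUSG00000038037), the inhibitor that blocks JAK catalytic activity, had the largest rise of the 9 in both lines. It was barely present under vehicle, at 2.91, 1.29, 2.43, 1.38 and 0.896 CPM in wild-type cells (16 to 54 reads per library) and 1.33, 1.33, 0.732, 0.505 and 1.66 CPM in knockout cells (13 to 41 reads). With IFNγ it read 43.7, 40.8, 47.0, 48.2 and 123 CPM in wild-type cells, a rise of 28.9-fold (4.85 ± 0.40 log2, edgeR adjusted p = 1.2e-08). In knockout cells it read 30.7, 26.2, 27.3, 53.9 and 137 CPM, a rise of 43.0-fold (5.43 ± 0.42 log2, edgeR adjusted p = 8.6e-09). The wild-type rise stood at percentile 99.1 of all 13755 log2 changes. The batch 3 library stood far above the other 4 in both IFNγ groups, and a fit of batch 1 alone gave 4.31 log2 in wild-type and 4.63 log2 in knockout cells. As differences of log2(CPM + 0.5), where the 0.5 shrinks changes from such low levels, the response was 4.08, 4.69 and 6.47 in wild-type and 4.15, 5.76 and 5.99 in knockout cells for batches 1, 2 and 3.

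Socs3 (ENSMUSG00000053113), the inhibitor that acts on gp130 receptors and JAKs, rose 17.0-fold in wild-type cells (4.09 ± 0.39 log2, edgeR adjusted p = 6.1e-08) and 7.33-fold in knockout cells (2.87 ± 0.37 log2, edgeR adjusted p = 6.8e-06). Wild-type libraries read 16.9, 13.9, 17.0, 20.1 and 26.8 CPM under vehicle and 164, 160, 157, 351 and 1842 CPM with IFNγ. Knockout libraries read 10.7, 8.47, 12, 13.6 and 12.9 CPM under vehicle and 51.1, 49.8, 54.7, 122 and 339 CPM with IFNγ. In each IFNγ group the batch 1 libraries were close together, batch 2 was above them and batch 3 above that, and the responses were 3.30, 4.10 and 6.08 log2 in wild-type and 2.28, 3.11 and 4.67 log2 in knockout cells.

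Ptpn2 (ENSMUSG00000024539), the phosphatase, did not pass the test in either line. Wild-type libraries read 53.1, 51.2, 54.3, 37.8 and 37.0 CPM under vehicle and 42.1, 47.6, 48.0, 54.7 and 61.9 CPM with IFNγ, a difference of 0.16 log2 (interval −0.15 to 0.46, edgeR adjusted p = 0.37). Knockout libraries read 46.8, 46.7, 41.9, 34.4 and 37.8 CPM under vehicle and 55.1, 52.0, 51.9, 33.4 and 34.6 CPM with IFNγ, a difference of 0.12 log2 (interval −0.18 to 0.42, edgeR adjusted p = 0.53). The batches disagreed in sign in both lines, at −0.20, 0.53 and 0.73 log2 in wild-type and 0.23, −0.04 and −0.13 log2 in knockout cells. A fit of batch 1 alone put Ptpn2 below vehicle in wild-type cells (−0.22 log2, edgeR adjusted p = 0.0055) and above it in knockout cells (0.25 log2, edgeR adjusted p = 0.0020).

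**Figure D2:**
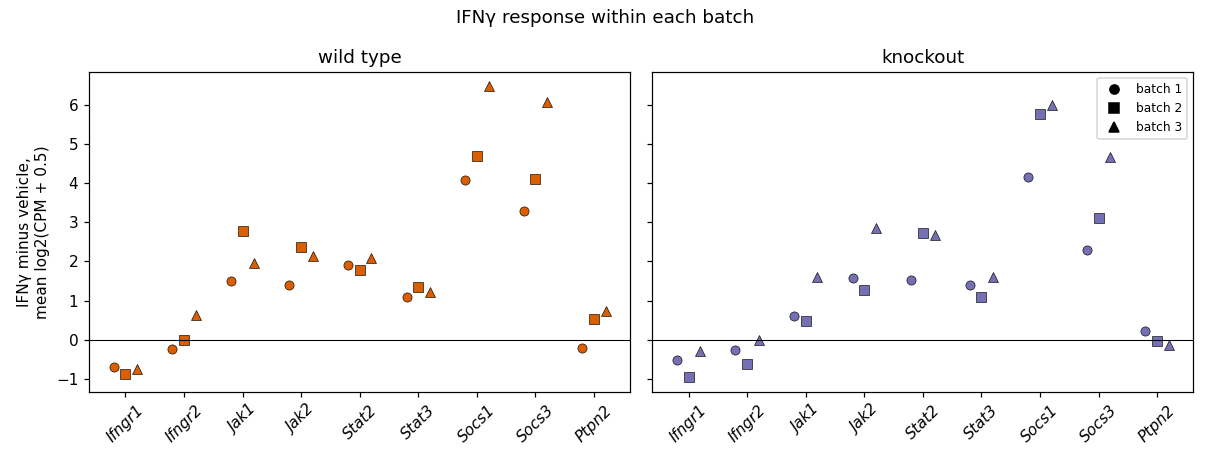
Difference between IFNγ and vehicle for each gene within each batch, as the difference of mean log2(CPM + 0.5), for wild-type and knockout cells. Socs1, Socs3, Stat2, Stat3, Jak1 and Jak2 are above 0 and Ifngr1 below 0 in all 3 batches of both lines, while Ptpn2 is on both sides of 0 in each line.

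Levels of different genes were compared per kilobase of exon, with the exons of all annotated transcripts of a gene merged. The order and the ratios below depend on that merged length, which need not be that of the transcript present. Under vehicle in wild-type cells the order was Ifngr2 (29.5 CPM per kb), Jak1 (22.0), Ifngr1 (20.4), Stat3 (17.5), Ptpn2 (14.9), Stat2 (11.3), Jak2 (8.63), Socs3 (6.54) and Socs1 (0.612 CPM per kb). With IFNγ the order in wild-type cells began with Socs3 (185 CPM per kb), Jak1 (84.4) and Stat2 (42.7) and ended with Ptpn2 (16.3) and Ifngr1 (12.1 CPM per kb), but the place of Socs3 rests on the batch 3 library. Without batch 3 Socs3 was at 71.9 CPM per kb, below Jak1 (83.7), and Jak1 was the highest member in 4 of 5 libraries. In knockout cells with IFNγ the means of Socs3 (42.6 CPM per kb) and Jak1 (38.4) were the highest, and those of Jak2 (11.4) and Ifngr1 (10.1 CPM per kb) the lowest. Without batch 3 Jak1 (32.6 CPM per kb), Stat2 (29.8), Ifngr2 (29.6) and Stat3 (25.6) all stood above Socs3 (24.0 CPM per kb). Neighbouring mean levels were often closer than the spread of the libraries, and no test was run between genes.

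Ratios within a library do not depend on how libraries are scaled, and no test was run on them. The ratio of Ifngr2 to Ifngr1 per kilobase was 1.25 to 1.58 in wild-type vehicle libraries. It was 2.09 to 3.23 with IFNγ, 2.27 to 3.01 in knockout vehicle libraries and 2.60 to 3.66 in knockout libraries with IFNγ. The wild-type vehicle group thus overlapped none of the other 3. The ratio of Jak1 to Jak2 was 5.38 to 8.95 in knockout vehicle libraries, above the 1.55 to 4.24 spanned by the other 3 groups. The ratio of Socs3 to Socs1 was 1.67 to 2.49 in knockout IFNγ libraries, below the 3.35 to 15.0 of wild-type IFNγ libraries.

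**Figure D3:**
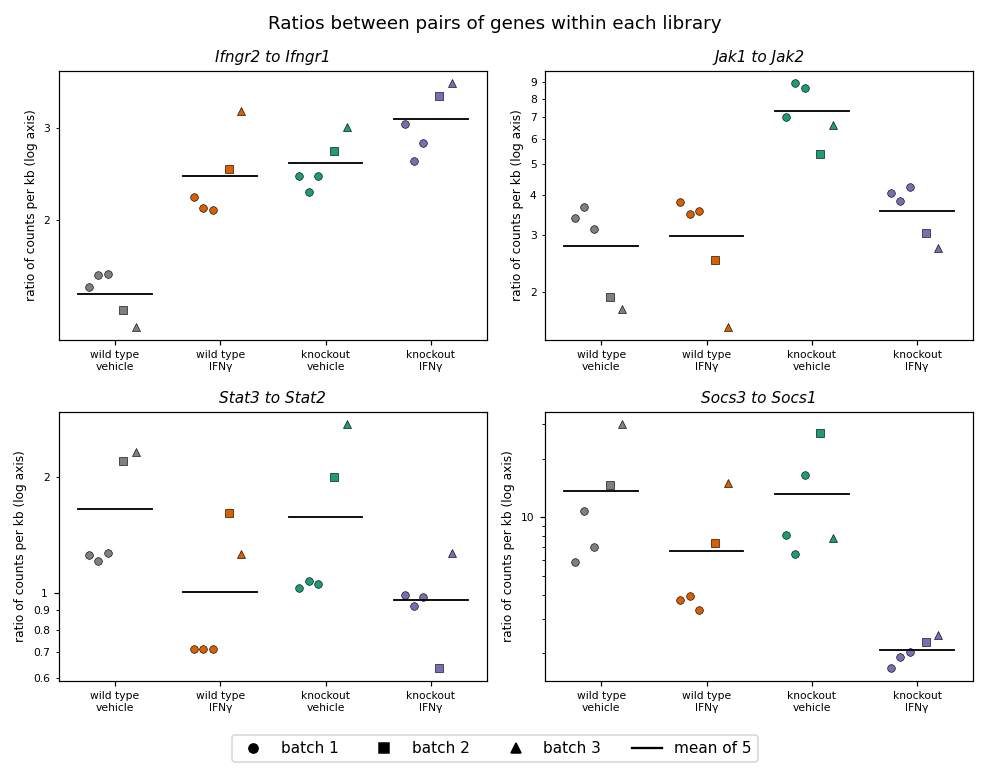
Ratios of levels per kilobase within each library for 4 gene pairs in the 4 groups (log axes). Each marker is 1 library, its shape gives the batch, and the black line is the mean of 5. The Ifngr2 to Ifngr1 ratio is 1.25 to 1.58 in wild-type vehicle cells and 2.09 or more in every other library, and the Jak1 to Jak2 ratio is 5.38 or more in the knockout vehicle libraries.

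Under vehicle, knockout cells had less Jak2, Stat3, Stat2 and Ifngr1 RNA and more Ifngr2 RNA than wild-type cells, and the other 4 members did not pass the test. Thus 4 of 9 members were lower and 1 higher, where 14.8% of all genes were lower, 12.5% higher and 27.3% called in either direction. The median log2 difference over the members was −0.56 against 0.03 over all genes. This comparison shares its vehicle libraries with both IFNγ responses. Jak2 differed most, at 12.5 to 18.4 CPM in knockout against 31.5 to 63.7 CPM in wild-type libraries, 2.69-fold lower (−1.43 ± 0.22 log2, edgeR adjusted p = 6.5e-05). Within batches 1, 2 and 3 the Jak2 difference was −1.21, −1.55 and −2.02 log2. Stat3 was 1.63-fold lower (−0.70 ± 0.10 log2, edgeR adjusted p = 2.6e-05), with 89.2 to 128 CPM in knockout against 151 to 190 CPM in wild-type libraries, at −0.73, −0.72 and −0.57 log2 within the batches.

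For the receptor chains the lines differed in opposite directions under vehicle. Ifngr1 was 1.38-fold lower in knockout cells (−0.47 ± 0.11 log2, edgeR adjusted p = 0.0037), with no overlap of the libraries, at −0.34, −0.45 and −0.85 log2 within the batches. Of the 30 alternative settings only scaling to plain library totals ended the call (edgeR adjusted p = 0.052). Ifngr2 was 1.28-fold higher (0.35 ± 0.12 log2, edgeR adjusted p = 0.033), again with no overlap, at 0.27, 0.55 and 0.41 log2 within the batches. The Ifngr2 call was lost in 13 of 30 alternative settings, among them leaving out any 1 of the wild-type vehicle libraries 1, 2, 4 or 5 or of the knockout vehicle libraries 1 to 4, with edgeR adjusted p up to 0.11. Stat2 was 1.48-fold lower (−0.56 ± 0.17 log2, edgeR adjusted p = 0.017) at −0.48, −0.58 and −0.80 log2 within batches 1, 2 and 3. Its pooled libraries overlapped, and without the batch 3 knockout library the edgeR adjusted p was 0.059.

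Socs3 was below wild type in every knockout vehicle library, at 8.47 to 13.6 against 13.9 to 26.8 CPM, but the difference of −0.65 log2 (interval −1.39 to 0.09) did not pass the test (edgeR adjusted p = 0.19). The libraries of 5 members (Ifngr1, Ifngr2, Jak2, Stat3 and Socs3) did not overlap between the lines, which held for 24.9% of all genes. Socs1 differed by −0.81 log2 (interval −1.71 to 0.08, edgeR adjusted p = 0.17), Ptpn2 by −0.16 (interval −0.47 to 0.14, edgeR adjusted p = 0.44) and Jak1 by −0.03 (interval −0.45 to 0.40, edgeR adjusted p = 0.94). In batch 1 alone Socs1 (−0.94 log2, edgeR adjusted p = 0.0031) and Socs3 (−0.63 log2, edgeR adjusted p = 6.7e-06) were both called lower.

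With IFNγ, knockout cells had less Socs3, Jak2, Jak1, Stat3 and Stat2 RNA than wild-type cells treated alike. These 5 of 9 members were lower and none was higher by edgeR, DESeq2 or limma-voom (0 also at an unadjusted edgeR p under 0.05), where 19% of all genes were lower, 20% higher and 39% called in either direction. The median log2 difference was −0.44 against 0.01 over all genes. The wild-type and knockout libraries overlapped for all 9 members, against 15.1% of all genes without overlap. The batches stood at different levels within each group, and the differences within batches follow.

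Socs3 had the largest of these differences, 3.63-fold lower (−1.86 ± 0.35 log2, edgeR adjusted p = 0.00032), at −1.62, −1.53 and −2.44 log2 within batches 1, 2 and 3. Jak2 was 2.72-fold lower (−1.44 ± 0.22 log2, edgeR adjusted p = 3.9e-05), at −1.04, −2.66 and −1.31 log2 within the batches. Jak1, which differed by −0.03 log2 between the lines under vehicle, was 2.19-fold lower (−1.13 ± 0.21 log2, edgeR adjusted p = 0.00026), at −0.89, −2.40 and −0.49 log2. All 3 genes were below wild type in every batch, with batch 2 farthest apart for the kinases and batch 3 for Socs3. Stat3 was 1.40-fold lower (−0.49 ± 0.10 log2, edgeR adjusted p = 0.00073), at −0.43, −0.99 and −0.20 log2.

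Stat2 was 1.36-fold lower in the pooled fit (−0.44 ± 0.17 log2, edgeR adjusted p = 0.042), but the batches did not share a sign, at −0.85, 0.35 and −0.21 log2. The call was lost in 10 of 30 alternative settings, among them leaving out any 1 library of batch 1 from either IFNγ group, or the wild-type IFNγ library of batch 3, with edgeR adjusted p up to 0.15 over the settings. Ifngr1 differed by −0.27 log2 (interval −0.51 to −0.04, edgeR adjusted p = 0.063) and was called lower, as a sixth member, by DESeq2 (adjusted p = 0.023), with RLE size factors (edgeR adjusted p = 0.039) and without knockout vehicle library 5 (edgeR adjusted p = 0.048). Socs1 differed by −0.24 log2 (interval −0.92 to 0.44, edgeR adjusted p = 0.59), Ptpn2 by −0.20 (interval −0.51 to 0.10, edgeR adjusted p = 0.29) and Ifngr2 by 0.08 log2 (interval −0.17 to 0.33, edgeR adjusted p = 0.64). Of these 4 genes, batch 1 alone called Socs1 lower (−0.62 log2, edgeR adjusted p = 2.6e-05) and Ifngr2 (0.27 log2, edgeR adjusted p = 0.00012) and Ptpn2 (0.23 log2, edgeR adjusted p = 0.0032) higher in knockout cells.

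**Figure D4:**
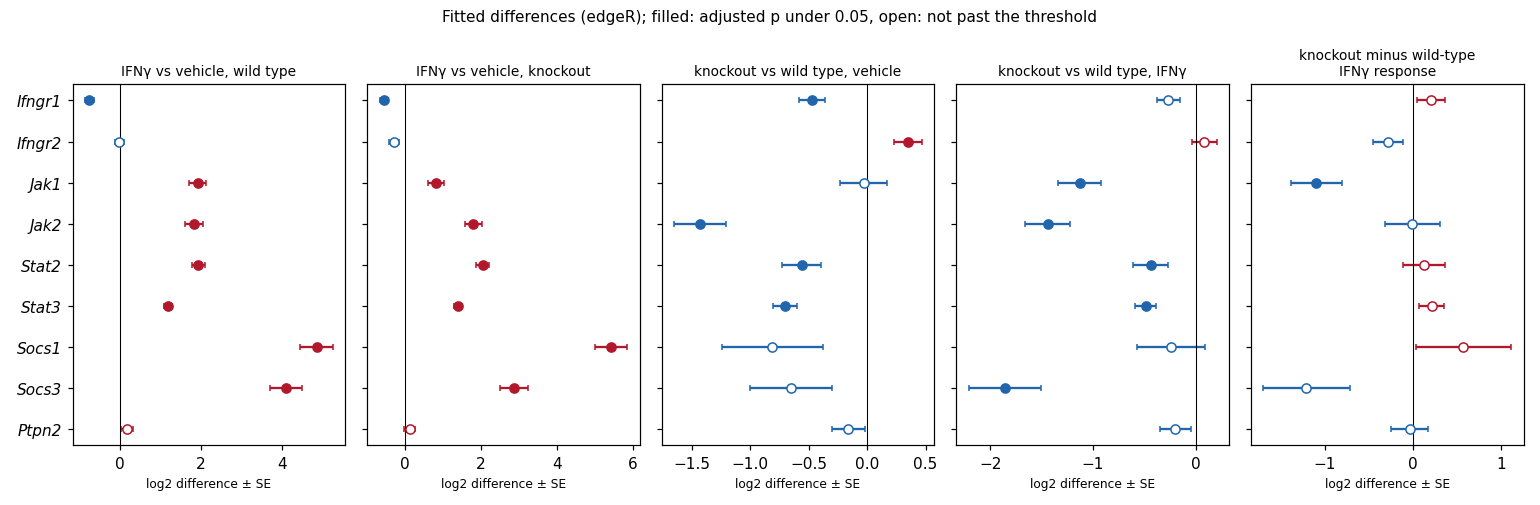
Fitted log2 differences of the 9 genes in the 5 comparisons, with bars of ± 1 SE. Red is positive and blue negative, and filled markers passed the threshold of edgeR adjusted p under 0.05. Jak1 is the only filled marker in the comparison of the responses, at −1.10 log2.

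Whether the IFNγ responses differed between the lines was tested as the difference of the log2 changes, knockout minus wild type. Jak1 was the only member called. Its response was 2.14-fold smaller in knockout cells (−1.10 ± 0.29 log2, edgeR adjusted p = 0.027), where 2.86% of all genes were called lower, 3.64% higher and 6.5% in either direction. The difference was −0.91, −2.31 and −0.34 log2 within batches 1, 2 and 3, negative in each and largest in batch 2. In 10 of 30 alternative settings the Jak1 call was lost, among them leaving out any 1 of 8 libraries (wild-type vehicle 4 and 5, knockout vehicle 1, 2 and 3, knockout IFNγ 1, 2 and 3), which gave edgeR adjusted p from 0.051 to 0.058 and values from −1.03 to −1.10 log2.

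Socs3 had a difference of similar size, −1.21 ± 0.49 log2 (interval −2.24 to −0.19), with an unadjusted edgeR p of 0.023 that did not pass adjustment (edgeR adjusted p = 0.15). It was −1.02, −0.98 and −1.41 log2 within batches 1, 2 and 3, and without batch 3 it was −0.98 log2 and passed (edgeR adjusted p = 0.012). Leaving out the batch 3 knockout vehicle library gave −1.44 log2 (edgeR adjusted p = 0.030). For Jak2 the responses of the lines differed by −0.01 log2 (interval −0.67 to 0.64, edgeR adjusted p = 0.99), with 0.17, −1.11 and 0.71 log2 within the batches, and for Socs1 by 0.57 log2 (interval −0.55 to 1.69, edgeR adjusted p = 0.59). Neither interval leaves out 0, and that of Socs1 is the wider. The values for Ifngr1, Ifngr2, Stat2, Stat3 and Ptpn2 lay between −0.28 and 0.21 log2, with edgeR adjusted p from 0.37 to 0.95. No member had a larger response in knockout cells by edgeR, DESeq2 or limma-voom, and 0 did at an unadjusted edgeR p under 0.05.

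The other genes of the pathway were taken from 5 lists, and their counts stand beside the background shares given above. Of the calls among the 37 tested list genes, those that held in all 30 alternative settings were 17 of 28 (IFNγ, wild type), 13 of 24 (IFNγ, knockout), 4 of 9 (lines under vehicle), 4 of 11 (lines with IFNγ) and 1 of 4 (difference of responses). Of 6 other JAKs and STATs, 5 were tested, and Stat4 was at most 0.0721 CPM in any library. With IFNγ, 1 of the 5 rose and 1 fell in wild-type cells, and 2 rose in knockout cells. Tyk2, the JAK of type I interferon receptors, rose in both (0.39 log2, edgeR adjusted p = 0.040, and 0.81 log2, edgeR adjusted p = 0.00038). In wild-type cells the Tyk2 call was lost in 10 of 30 settings, among them plain totals, no filter, no batch term, the replicate block, without batch 2 and without any 1 of wild-type vehicle libraries 1, 2 and 4 or wild-type IFNγ libraries 2 and 4 (edgeR adjusted p up to 0.41). Stat5a fell in wild-type cells (−0.40 log2, edgeR adjusted p = 0.015) and was lower in knockout cells under vehicle (−0.51 log2, edgeR adjusted p = 0.0071), the 1 call of that comparison. The Stat5a fall was lost in 4 of 30 settings, among them batch 1 alone (−0.15 log2, edgeR adjusted p = 0.097) and without batch 2. The Stat5a call under vehicle was lost with plain totals. With IFNγ, Jak3 was higher (0.74 log2, edgeR adjusted p = 0.0048) and Stat6 lower (−0.59 log2, edgeR adjusted p = 0.0025) in knockout than in wild-type cells. The Jak3 call was lost with no batch term (edgeR adjusted p = 0.08) and the Stat6 call with plain totals (edgeR adjusted p = 0.057).

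Of the 6 other SOCS family genes, 3 rose and 1 fell with IFNγ in each line. Cish, the family member named for its SH2 domain, rose by 1.76 log2 in wild-type (edgeR adjusted p = 0.00052) and 2.61 log2 in knockout cells (edgeR adjusted p = 2.6e-05), to means of only 2.97 and 3.89 CPM. Socs4 rose by 0.99 and 0.64 log2 (edgeR adjusted p = 0.00026 and 0.014), and Socs5 fell by 0.75 and 0.72 log2 (edgeR adjusted p = 0.015 and 0.024). The Socs5 calls were lost in 3 (wild type) and 4 (knockout) of 30 settings, and the Socs4 call in knockout cells in 3. Socs2 was the 1 gene of the list that differed between the lines, lower in knockout cells under vehicle (−0.81 log2, edgeR adjusted p = 0.018) and with IFNγ (−0.90 log2, edgeR adjusted p = 0.0068). The Socs2 difference was −0.47, −1.09 and −1.31 log2 under vehicle within batches 1, 2 and 3, and with IFNγ it was −0.85, 0.30 and −2.01 log2, with the other sign in batch 2. Without knockout vehicle library 4 or 5 the Socs2 call under vehicle was lost (edgeR adjusted p up to 0.060).

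Of 8 phosphatases and PIAS proteins, 2 rose and 3 fell in wild-type cells and 3 rose and 1 fell in knockout cells with IFNγ. Ptpn6, which encodes the phosphatase SHP-1, was at 269 ± 27.4 CPM (SD, n = 5) in wild-type vehicle cells and 141 ± 27.9 CPM with IFNγ, a fall of 0.91 on the log2 scale (edgeR adjusted p = 0.00012). In knockout cells it was at 249 ± 31.5 and 243 ± 68.3 CPM. The Ptpn6 responses differed by 0.87 ± 0.24 log2 (edgeR adjusted p = 0.033), the 1 call of the list in that comparison. Within batches 1, 2 and 3 the Ptpn6 value was 1.37, −0.07 and 0.33 log2, so that only batch 1 had a difference of the pooled size. That call was lost in 15 of 30 settings, among them leaving out any 1 library of batch 1 or the batch 3 wild-type vehicle library (edgeR adjusted p up to 0.10 over the settings). Ptpn11, which encodes SHP-2, fell in both lines (−0.62 and −0.59 log2, edgeR adjusted p = 0.0026 and 0.0057). Pias4, a SUMO ligase that restrains STATs, rose in both lines (0.42 and 0.40 log2, edgeR adjusted p = 0.0034 and 0.0078) and was lower in knockout cells under either treatment (−0.43 and −0.46 log2, edgeR adjusted p = 0.0064 and 0.0030). In that order, the Pias4 calls were lost in 2, 3, 3 and 2 of 30 settings.

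Of 6 related receptor chains, 5 rose with IFNγ in wild-type cells, and 2 rose and 1 fell in knockout cells. With plain totals, with no filter or without batch 3, 3 in place of 5 rose in wild-type cells. Il10rb, counted as a rise in both lines, was barely present. Its means were 0.261 CPM under vehicle and 0.934 CPM with IFNγ in wild-type cells, and 0.217 and 0.83 CPM in knockout cells. In batch 1 alone its call in knockout cells was lost (edgeR adjusted p = 0.13). Il10ra, a chain of the IL-10 receptor, rose in both (1.34 and 1.5 log2, edgeR adjusted p = 4.3e-05 and 4.2e-05) and was lower in knockout cells under vehicle (−1.17 log2, edgeR adjusted p = 0.00066) and with IFNγ (−1.01 log2, edgeR adjusted p = 0.0012). Il6st, which encodes gp130, rose in wild-type cells from 99.7 ± 8.05 to 152 ± 17.4 CPM (0.60 log2, edgeR adjusted p = 0.00076) and stood at 139 ± 9.10 and 131 ± 42.9 CPM in knockout cells (SD, n = 5 each). Its responses differed by −0.72 ± 0.19 log2 (edgeR adjusted p = 0.028), at −0.97, −0.60 and −0.19 log2 within the batches. The Il6st call was lost in 12 of 30 settings, among them leaving out any 1 of 9 libraries (wild-type vehicle 3 and 5, wild-type IFNγ 1, knockout vehicle 1 to 3 and knockout IFNγ 1 to 3), with edgeR adjusted p up to 0.16.

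Of 12 target genes of IFNγ, all 12 rose in wild-type cells and 11 in knockout cells, with median changes of 2.94 and 3.40 log2. Irf9, a partner of STAT2, was the exception in knockout cells (0.11 log2, edgeR adjusted p = 0.58), and it rose by 0.44 log2 in wild-type cells (edgeR adjusted p = 0.020), at 0.58, −0.44 and 0.80 log2 within the batches. That Irf9 call was lost in 5 of 30 settings, among them without batch 3 and without wild-type vehicle library 1 or wild-type IFNγ library 5 (edgeR adjusted p up to 0.36). The responses of 2 of the 12 differed between the lines. Cd274, which encodes PD-L1, rose from a mean of 10.5 to 1938 CPM in wild-type and from 11.4 to 790 CPM in knockout cells, a difference of responses of −1.63 ± 0.40 log2 (edgeR adjusted p = 0.020). The Cd274 difference was −1.93, −1.46 and −0.79 log2 within the batches, and its call was lost with no batch term and without wild-type IFNγ library 5 (edgeR adjusted p up to 0.42). Psmb9, an immunoproteasome subunit, rose from a mean of 45.4 to 128 CPM in wild-type and from 34.3 to 200 CPM in knockout cells, a difference in the other direction of 1.06 ± 0.21 log2 (edgeR adjusted p = 0.0044) that held in all 30 settings. Between the lines, 3 of the 12 were lower and 0 higher in knockout cells under vehicle, where 14.8% and 12.5% of all genes were. With IFNγ 3 were lower and 1 higher, against 19% and 20% of all genes. The call of lower Psmb9 under vehicle (edgeR adjusted p = 0.033) was lost in 10 of 30 settings. The call of lower Cxcl9 with IFNγ (edgeR adjusted p = 0.049) was lost in 19 of 30. Ciita, the activator of MHC class II genes, was lower in knockout cells with IFNγ, at 10.0 to 16.4 CPM against 36.2 to 120 CPM (−2.12 ± 0.25 log2, edgeR adjusted p = 2.2e-06). It was also lower under vehicle (−4.11 log2, edgeR adjusted p = 8.2e-06), at means of only 0.0484 against 0.931 CPM. Its response was 7.98 log2 in knockout and 6 log2 in wild-type cells. That difference of 1.99 log2 did not pass the test (edgeR adjusted p = 0.069) but did in 8 of 30 settings.

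Likeness of pattern was described by Pearson's r of batch-centred log2 CPM over the 20 libraries, among 9838 genes. The libraries share their group and depth, so high values are common. The closest gene was Il4ra for Socs3 (r = 0.992), Gm4951 for Socs1 (0.990), Il1rn for Stat2 (0.990), Ciita for Stat3 (0.987), Pacs2 for Jak1 (0.985), Fuca2 for Jak2 (0.980), Fig4 for Ifngr1 (0.955), Vti1b for Ptpn2 (0.892) and Eef2kmt for Ifngr2 (0.870). For Socs1, Irf1 (0.988) and Tmem140 (0.987) came next, and for Socs3, Tnfaip2 (0.984) and Tnfrsf1a (0.981). Among the members themselves, Stat2 was most like Socs1 and Socs3 (r = 0.96 each) and Jak2 most like Stat3 (0.95), while Ifngr1 ran opposite to Socs1 (−0.77).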

How the data were processed

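Messenger RNA of 20 libraries (4 groups of 5) was counted per gene. The deposited table holds raw counts, and per the submitters' processing notes STAR, Trim Galore, FastQC and DESeq2 were used with build GRCm39 (no versions). How reads were counted, on which strand and with which annotation is not given in the sources used here. Reads of overlapping or near-identical genes may have been assigned either way. Symbols came from GENCODE vM21 (51948 of 56941 IDs, 91.2%), which also gave exon lengths. All count columns matched a library.

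Counts were scaled by TMM and filtered with filterByExpr (13755 genes left) in edgeR 4.0.16 (R 4.3.3). Quasi-likelihood models took group and batch as terms over all 20 libraries, with 14 residual degrees of freedom, and p-values were Benjamini-Hochberg adjusted within each of 5 comparisons at a threshold of 0.05. Levels are CPM on TMM-scaled totals, except Malat1 and the cell type markers in the checks of the libraries, which are on plain library totals. Differences within batches are of mean log2(CPM + 0.5). Intervals are at 95%. The alternatives were other scalings, no filter on low counts, DESeq2 1.42.0, limma-voom (limma 3.58.1), no batch term, the replicate number as a block, batch 1 alone, each of batches 2 and 3 left out, and each library left out. The models were also run on simulated counts without batch differences, with changes planted only in the wild-type IFNγ libraries. There edgeR called 25.4% of planted 1.5-fold changes, 77.6% of 2-fold and 100% of 4-fold changes. The real libraries differ by batch, so these shares need not hold for them.

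Deviations of same-numbered libraries within batch 1 correlated at −0.04 to 0.04 between groups, and only the batch was treated as shared. Replicates differed by a chi-squared per degree of freedom of 3.54 to 13.3 within a batch and 14.1 to 356 across batches, and none was a copy. The genes named are the 9 members, Rgs10, up to 2 called genes each way per pathway list and comparison, of which some are named, plus Irf9, Il6st, Il10rb, Cd274, Psmb9, Cxcl9 and Stat4 where a count rests on them, and for each member up to 3 genes of the most similar pattern with a mean of at least 5 CPM. Members and lists were chosen with earlier results of these data known. Some pathway genes are not reported here. Promoter sequences are from RefSeq on GRCm38.p6, a build other than that of the counts, and no coordinate was joined between them.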

Additional observations from a re-analysis of the deposited data

Results flagged for a closer look

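In 8 of 36 sets of 5 libraries (9 genes in 4 groups) 1 library stood far from the other 4 by Dixon's criterion, which chance gives in about 1 of 20 sets of exchangeable libraries. Here 3 of each 5 libraries share a batch and the 9 genes share the libraries, so that rate need not apply. In each case it was the batch 3 library with IFNγ, and it was the highest. In wild-type cells these were Ifngr2 at 161.1 CPM, Socs1 at 123.4 CPM and Socs3 at 1842 CPM. In knockout cells they were Jak1 at 447.4 CPM, Jak2 at 113.6 CPM, Stat3 at 385.7 CPM, Socs1 at 136.9 CPM and Socs3 at 338.7 CPM. The same 2 libraries had Malat1 at 955 and 1000 CPM and TMM factors of 0.76 and 0.88, and the part of these in the high values was not tested. Without batch 3 the rises of Jak1, Jak2, Stat3, Socs1 and Socs3 were still called in both lines by edgeR.

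The Jak1 response to IFNγ differed between the lines by −1.10 log2 (knockout minus wild type), as tested by the interaction term (edgeR adjusted p = 0.027). Jak1 was smaller in its response in knockout cells in 3 of 3 batches.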

How the results depend on the processing

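Of 45 member results (9 genes in 5 comparisons) 25 were called by edgeR, and 20 of these calls held in all 30 alternative settings. They comprise the rises of Jak1, Jak2, Stat2, Stat3, Socs1 and Socs3 and the fall of Ifngr1 with IFNγ in both lines, the lower Jak2 and Stat3 in knockout cells under both treatments, and the lower Jak1 and Socs3 with IFNγ. The other 5 (Ifngr1, Ifngr2 and Stat2 between the lines under vehicle, Stat2 between the lines with IFNγ, and the Jak1 response) were lost in some settings. Where no cause is named for such a change, the cause was not tested.

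In batch 1 alone, which has fewer samples and a smaller spread, 7 of the 45 values had the other sign. The 4 that were called there were Ptpn2 with IFNγ in wild-type cells (−0.22 log2), Ptpn2 between the lines with IFNγ (0.23), and the differences of the responses for Stat2 (−0.33) and Ptpn2 (0.47 log2). The other 3 (Jak1 under vehicle, and the differences of the responses of Ifngr2 and Jak2) were not called there or with all batches. There the members called lower numbered 3 (IFNγ, wild type), 2 (IFNγ, knockout) and 7 (lines under vehicle), those higher between the lines with IFNγ 2, and for the difference of responses 2 were called higher and 3 lower. Over all 13833 genes tested in batch 1 alone, calls were also more frequent than with all batches. They numbered 4146 lower under vehicle, 4948 higher between the lines with IFNγ, and 4108 higher and 2988 lower for the difference of responses. For the IFNγ responses the batch 1 share of all genes is not reported here. Members lower with IFNγ in knockout cells numbered 2 in place of 1 with plain library totals, limma-voom or without batch 3. Members higher in knockout cells under vehicle numbered 0 in place of 1 with RLE size factors, no filter, no batch term, the replicate block or without batch 2. For the difference of responses, members called lower numbered 2 in place of 1 without a filter or without batch 3, and 0 with no batch term or the replicate block. With the block (no pairing was seen within batch 1) the edgeR adjusted p was 0.055 for the Jak1 response, 0.057 for Ifngr2 under vehicle and 0.064 for Stat2 between the lines with IFNγ. Leaving out 1 library gave 1 to 2 members lower with IFNγ in knockout cells, 0 to 1 higher and 3 to 5 lower between the lines under vehicle, 4 to 6 lower between them with IFNγ, and 0 to 2 lower for the difference of responses.

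Over all genes, calls for the difference of responses, 500 higher and 394 lower, became 324 and 213 with plain totals, 827 and 653 with DESeq2, 70 and 68 with no batch term, 287 and 243 with the replicate block, 4108 and 2988 in batch 1 alone, 1083 and 823 without batch 2, 932 and 699 without batch 3, and 291 to 836 and 247 to 617 with 1 library left out. Without the batch term, genes lower with IFNγ in knockout cells numbered 1605 (3000 with it), those higher in knockout cells under vehicle 944 (1723) and with IFNγ 1791 (2754). Batch 1 alone gave 3926 higher and 4146 lower (2030 with all batches) under vehicle and 4948 higher and 4632 lower (2609) with IFNγ. With plain totals the median of all genes moved to −0.21 and −0.16 log2 for the IFNγ responses (wild type, knockout) and 0.13 between the lines with IFNγ, and the share of calls that were higher was 36.7%, 38.5% and 62.3% against 49.2%, 49.5% and 51.4%. No batch term gave 58.8% for the response in knockout cells. At 13 to 54 reads, Socs1 under vehicle has the least depth of the members.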
